A study of Homo sapiens with 5 samples.

Results

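The 41 genes described here encode the integrins, the receptors through which cells hold on to the extracellular matrix, and the proteins of focal adhesions, the plaques that tie integrins to the actin cytoskeleton. They were chosen by name, not by a cut on binding values, but with earlier results of these data known. They comprise the 26 integrin subunit genes (18 alpha and 8 beta) and 15 genes of core focal adhesion proteins, out of 20007 protein-coding genes. Each was examined for peaks of TEAD4, a DNA-binding transcription factor, in LX-2 cells. A peak was assigned to a gene when its summit lay in the gene body or within 50 kb of any of the gene's transcription start sites (TSSs), which is called the search region of the gene below. A peak could be assigned to several genes.

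LX-2 cells are an established line of human hepatic stellate cells, the collagen-producing cells of the liver, and they grow in an activated, myofibroblast-like state. All samples were LX-2 cells that carried no genetic change in the labels and had received DMSO only, as 3 TEAD4 chromatin immunoprecipitations (ChIP) and 2 input samples, without an untreated or TEAD4-depleted group. The list of 21113 TEAD4 peaks analysed here combines replicates 1 and 3, and it gives 1 signal value per peak, a measure of ChIP enrichment from the peak caller. It therefore holds no spread between replicates, no sequencing depth and no gene expression, so the identity of the cells could not be checked against marker genes, and the intervals below are Wilson 95% intervals that cover counting error over genes or peaks only.

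Integrins are heterodimers of an alpha and a beta chain, and the pair decides which matrix protein or cell surface ligand is bound. Talins and kindlins bind the beta tail and switch the receptor on, vinculin, tensins and parvins connect it to actin, and the kinase encoded by PTK2 (focal adhesion kinase), paxillin and BCAR1 (p130Cas) pass the signal on. TEAD factors act with the coactivators YAP1 and TAZ, whose activity is known to depend on adhesion and cytoskeletal tension. In hepatic stellate cells, integrins that hold the alpha V chain are known for the activation of latent TGF-beta.

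TEAD4 peaks were assigned to most of these genes, including all beta chain and focal adhesion protein genes. Of the 41 genes, 36 had a peak (87.8%, interval 74.5 to 94.7), beside 56.2% of all protein-coding genes. All of the 8 beta subunit genes (interval 67.6 to 100) and the 15 focal adhesion protein genes (79.6 to 100) had a peak. Of the 18 alpha subunit genes, 13 did (72.2%, 49.1 to 87.5), and these intervals overlap. At ITGB4, ITGB7 and PARVB, every assigned peak lay nearer to the start of another gene. The 5 genes without a peak all encode alpha chains, namely ITGA4, ITGA10, ITGAD, ITGAE and ITGAX, and 3 of them belong to leukocyte integrins. Long genes have longer search regions, and the median region was 164 kb for the 41 genes and 112 kb for the others. When the other genes were weighted to the same spread over 10 classes of region length, 64.3% of them had a peak. By group, this background was 63.5% for the alpha genes, 62.1% for the beta genes and 66.5% for the focal adhesion protein genes. It lay inside the interval of the alpha genes and below those of the beta and focal adhesion protein genes. For all 26 integrin genes it was 63.1%, inside their interval (80.8%, 62.1 to 91.5).

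The number of peaks per gene was also higher than in the background. The 41 genes had a median of 3 peaks and a mean of 3.61, and the other protein-coding genes had a median of 1 and a mean of 1.44, or 1.96 with the weights for region length. At least 4 peaks were found at 17 of the 41 genes (41.5%, 27.8 to 56.6), beside 11.6% of all protein-coding genes, and the other genes reached 17.97% with the length weights. Per 100 kb of search region there were 1.85 peaks at the 41 genes and 0.935 at the others. In all, 25 of the 41 genes had more peaks than the mean of other genes in their class of region length. The share of other genes above their class mean was not computed, so this count and those for the groups below have no background. In the class of the longest regions, with a mean of 3.45, at least 4 peaks were found at 35.8% of other genes. Altogether 146 distinct peaks were assigned, of which 2 lay in an intron of ITGA1 and also within 50 kb of ITGA2 and counted for both.

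**Figure D1:**
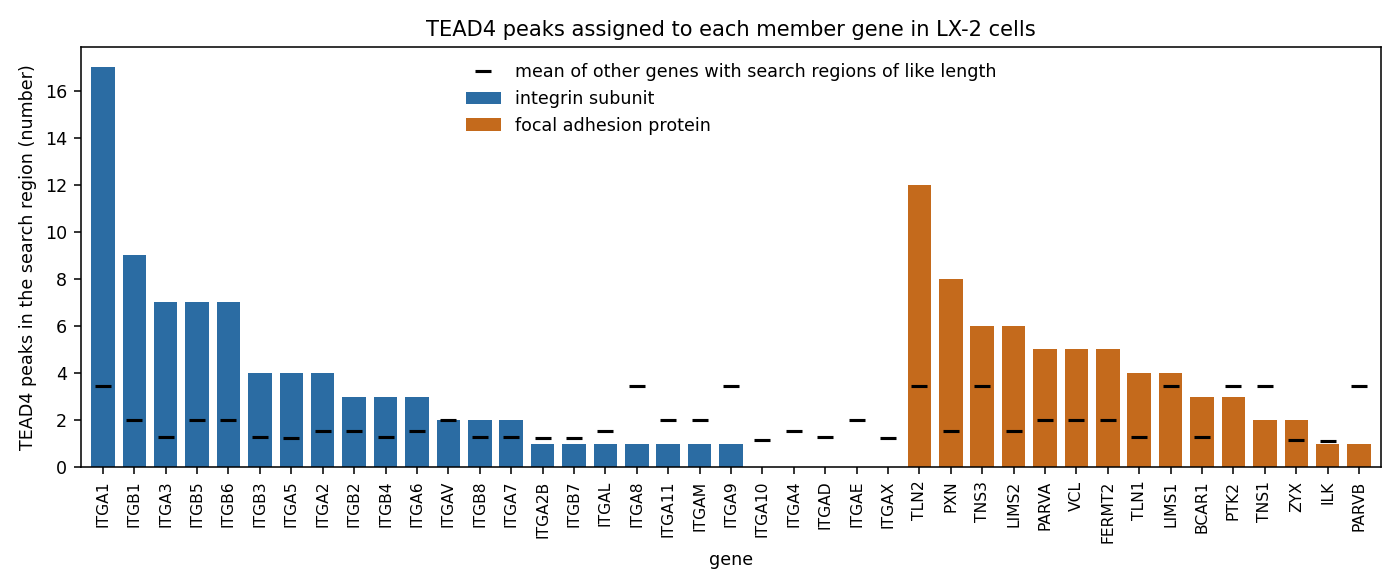
Number of TEAD4 peaks (vertical axis) assigned to each integrin subunit gene and focal adhesion protein gene (horizontal axis), with a dash at the mean of other protein-coding genes with search regions of like length. The 17 peaks at ITGA1 and the 12 at TLN2 are the highest counts, and 5 integrin alpha genes have no peak.

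The signal values of the peaks spanned from 10.2 to 422.9 and were not high as a set. The median of the 146 peaks was 65.9 and that of all other peaks in the list was 68.1, and 66 of the 146 (45.2%) lay above the median of the whole list. The strongest peak per gene was higher, with a median of 129.9 at the 36 genes with a peak beside 97.5 at other genes with a peak, and it fell in the top 25% of the list at 20 of the 41 genes (48.8%) beside 23.8% of all protein-coding genes. At a gene with more peaks, the strongest is taken from more values. Set beside genes with the same number of peaks (7 or more pooled), the strongest peaks of the 36 genes had a median percentile of 42.1, and 14 of the 36 were above the midpoint. The 41 genes thus had more peaks than the background, and single peaks of ordinary strength.

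**Figure D2:**
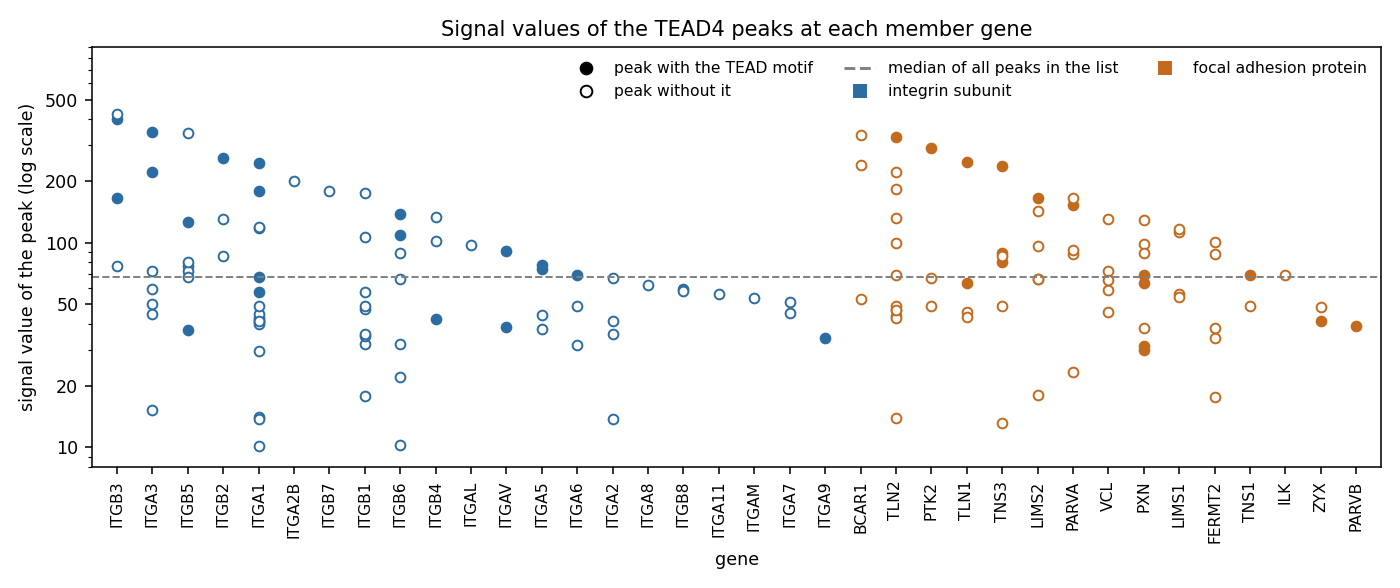
Signal value of each TEAD4 peak (vertical log axis) at the 36 genes with a peak, ordered within integrins and focal adhesion proteins by the strongest peak. Filled points hold the TEAD motif near the summit, open points do not, and the dashed line is the list median of 68.1, which lies below all 4 peaks of ITGB3.

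The bases under the strongest integrin peaks are shown here, as 81 bases of hg38 around the summit on the plus strand. They were selected after the values were seen, to show how the recognition sequences lie in the most strongly bound sites. Capitals mark the TEAD motif ACATTCC or its reverse complement, the AP-1 motif TGAGTCA, and the TEAD core GGAATG or its reverse complement where the whole motif is not present.
ITGB3 intron, chr17:47267471-47267551, signal 422.9: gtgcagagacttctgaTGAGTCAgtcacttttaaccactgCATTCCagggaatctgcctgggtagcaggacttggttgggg
ITGB3 intron, chr17:47305688-47305768, signal 401.9: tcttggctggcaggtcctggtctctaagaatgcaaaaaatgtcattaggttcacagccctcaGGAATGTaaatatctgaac
ITGA3 upstream, chr17:50028498-50028578, signal 346.8: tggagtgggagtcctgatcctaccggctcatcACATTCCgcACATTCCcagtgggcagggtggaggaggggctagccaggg
ITGB5 intron, chr3:124774451-124774531, signal 343.4: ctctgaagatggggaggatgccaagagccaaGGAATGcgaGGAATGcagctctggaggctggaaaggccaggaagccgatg
ITGB2 downstream, chr21:44870047-44870127, signal 259.4: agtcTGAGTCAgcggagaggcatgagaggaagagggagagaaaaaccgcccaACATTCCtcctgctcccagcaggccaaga
ITGA1 upstream, chr5:52783441-52783521, signal 245.7: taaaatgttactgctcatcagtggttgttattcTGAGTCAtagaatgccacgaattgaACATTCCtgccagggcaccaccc
The site upstream of ITGA3 holds 2 copies of the TEAD motif on the same strand, nearly side by side. The site in ITGB5 has no whole motif and 2 copies of the core with a like spacing. An AP-1 motif and a whole TEAD motif lie together at ITGB2 and ITGA1, and the strongest site of all, in ITGB3, pairs an AP-1 motif with the core.

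The beta chain genes had a higher median and mean number of peaks than the alpha chain genes, though not gene by gene. At least 4 peaks were found at 50% of the beta genes (21.5 to 78.5) and 22.2% of the alpha genes (9.0 to 45.2). These intervals overlap, and the share of all protein-coding genes was 11.6%. The 8 beta genes had a median of 3.5 peaks and a mean of 4.5, beside 1.58 for other genes weighted by region length. Of these, 7 exceeded the mean of their length class. Their strongest peaks had a median of 177. Those of 7 of the 8 fell in the top 25% of the list, beside 23.8% of all protein-coding genes, not matched for peak number. However, those of ITGB4 and ITGB7 lay at the start of another gene. At the 18 alpha genes the median was 1 peak and the mean 2.5, beside 1.84 for other genes weighted by region length. Of these, 7 exceeded the mean of their class, and 3 had a strongest peak in the top 25%. That of ITGA2B lay at the start of another gene. A count added after the values were seen kept only peaks whose nearest coding TSS was the gene's own. By this count, 5 of the 8 beta genes (ITGB1, ITGB2, ITGB3, ITGB5 and ITGB6), 2 of the 18 alpha genes (ITGA1 and ITGA3) and 10 of the 15 focal adhesion protein genes had a peak in the top 25%, beside 13.2% of all protein-coding genes. This background was not weighted for region length, number of peaks or number of TSSs, and no intervals were computed for these counts. Since the list carries no replicate values, an order of single integrins by peak strength is a description of this list, and neighbours in it could not be separated by an error.

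The beta chains that pair with alpha V differed widely from each other. ITGB3, whose product binds vitronectin and fibrinogen and pairs with alpha V or alpha IIb, had the strongest peak of the 41 genes, at chr17:47267317-47267678 with a signal value of 422.9, rank 244 in the list. The summit of that peak lay 13658 bp from a TSS of ITGB3 and 13614 bp from one of another coding gene, ENSG00000259753. The other 3 peaks of ITGB3 had values of 401.9, 164.3 and 76.7. All 4 were thus above the list median, and 3 of them lay in the gene. The closest was 11674 bp from a TSS of ITGB3, and none was near the promoter. ITGB5, the vitronectin receptor chain, had 7 peaks, all inside the gene, with values of 343.4, 126.8, 80.4, 76.8, 72.5, 67.8 and 37.5. The first of these lay at chr3:124774331-124774651, 4309 bp from the nearest TSS, and 4 of the others were within 2.5 kb of a TSS, at 25 bp in the closest case. ITGB6, the epithelial chain of an activator of latent TGF-beta, also had 7 peaks, but none in its body. Of these, 6 formed a group from 7908 to 21771 bp upstream, with the strongest at chr2:160221758-160221986 and a value of 138.7. ITGB8, the chain of another TGF-beta activating receptor, had 2 peaks in its introns, of 59.2 (chr7:20351831-20352274, 12592 bp from a TSS) and 58.3, both below the list median. ITGB3, ITGB5 and ITGB6 each had a strongest peak in the top 25% of the list and ITGB8 did not.

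ITGB1 encodes the common partner of most alpha chains, including all collagen receptors. It had 9 peaks, more than 97.8% of other genes in its class of region length, and all 9 lay nearest to one of its own TSSs. The strongest, at chr10:32982392-32982697 with a value of 175.2, was in an intron 9914 bp from the nearest TSS. A second intronic peak had a value of 106.8, and the remaining 7 were between 17.9 and 57.2. A summit fell directly on an annotated TSS of the gene and another 2 bp from one, and 3 of the 9 peaks were within 2.5 kb of a TSS. None of the 9 held the TEAD motif.

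ITGB4, the laminin-binding partner of alpha 6 in hemidesmosomes, had 3 peaks outside its body with values of 132.7 (chr17:75784592-75784841), 102.1 and 42.6. All lay nearer to the start of another gene, at 78 bp from UNK, 1149 bp from SAP30BP and 11 bp from GALK1, and the closest was 8208 bp from a TSS of ITGB4.

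The 4 alpha chains of collagen receptors held both extremes. ITGA1 had 17 peaks, the most of the 41 genes and more than 98.3% of other genes in its length class. They spread over 191 kb and merged into 13 regions where peaks that share a base are joined. Their values ran from 10.2 to 245.7 with a median of 42.9, and 4 were above the list median. The strongest was at chr5:52783324-52783646, 4435 bp upstream, followed by an intronic peak of 179.2 at chr5:52922456-52922716. The closest was 436 bp from a TSS, and 3 were within 2.5 kb of one. The upstream and first intronic peaks of ITGA1 lie as near to PELO, which shares its start, and the list does not say which gene a peak acts on.

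ITGA2 had 4 peaks between 13.8 and 67.1, none above the list median. The strongest, at chr5:53091262-53091705, lay in its UTR 102044 bp from its TSS, and the 2 that it shares with ITGA1 were the closest, at 40652 and 40853 bp. ITGA11, a collagen receptor chain of fibroblasts and myofibroblasts, had a single peak in an intron (chr15:68352449-68352892, 8970 bp from a TSS) of 55.8. ITGA10 had no peak, and the closest in the list was 54193 bp from its TSS, just beyond the limit of 50 kb. Receptors for the same ligand thus ranged from 0 to 17 peaks.

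Among the alpha chains of laminin receptors, ITGA3 had 7 peaks, more than 98.9% of other genes in its length class. Their values were 346.8, 221.8, 72.6, 59.4, 49.96, 44.7 and 15.3. The strongest was at chr17:50028373-50028721, 27430 bp upstream, and the next, at chr17:50062497-50062802, was 899 bp from an internal TSS, and both held the TEAD motif. ITGA6 had 3 peaks of 69.8 (chr2:172439255-172439698), 48.8 and 31.4, with the closest 6960 bp from a TSS. ITGA7, the laminin receptor chain of muscle, had 2 peaks of 51.2 (chr12:55720995-55721438) and 45.2, which lay 22 bp from the start of RDH5 and 123 bp from that of METTL7B, while the closer was 4813 bp from ITGA7. Only ITGA3 of these 3 genes had a peak in the top 25% of the list.

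The alpha chains that recognise the arginine-glycine-aspartate sequence had 1 to 4 peaks each, and only that of ITGA2B was in the top 25% of the list. ITGA5, the fibronectin receptor chain, had 4 peaks, more than 91.5% of other genes in its length class. Their values were 77.9 (chr12:54411363-54411806, 1843 bp from a TSS), 74.4, 44.2 and 37.8, and the last lay 68 bp from its TSS. ITGAV, the alpha V chain that pairs with several beta chains, had 2 upstream peaks of 90.8 (chr2:186544297-186544740, 45491 bp away) and 38.5 (19157 bp away), each with a TEAD motif, and none in its 90.9 kb body. ITGA8, known as a marker of stellate cells and other mesenchymal cells, had 1 intronic peak of 62.3 at chr10:15609275-15609718, 5227 bp from a TSS. ITGA2B, the platelet chain, had 1 peak of 201 at chr17:44345007-44345315. That peak was 31014 bp from ITGA2B and 76 bp from the start of GRN, so the strong value belongs to a site at the GRN promoter. The group's strongest peak nearest to an own TSS was that of ITGA5.

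The related chains ITGA4 and ITGA9 had little. ITGA9 had 1 intronic peak of 34.1 (chr3:37799882-37800325, 20089 bp from a TSS) in a search region of 428 kb, where other genes in its class had a mean of 3.45 peaks. ITGA4 had none, and the closest peak was 219706 bp from its TSS.

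Genes of leukocyte integrins also had few peaks. Of the 7, 4 had a peak (57.1%, 25.05 to 84.2), close to the 61.6% of other genes weighted by region length, with a mean of 0.857 peaks beside 1.54. The remaining 19 integrin genes had a mean of 3.95 beside 1.84, and 17 of them had a peak (89.5%, 68.6 to 97.1). The intervals of the 2 shares overlap. ITGB2, the beta chain shared by the leukocyte receptors, was the exception with 3 peaks of 259.4 (chr21:44869947-44870244), 130.0 and 86.0. The strongest was 19044 bp from ITGB2 and 2945 bp from PTTG1IP, while the others lay 86 and 582 bp from TSSs of ITGB2 itself. ITGB7 had 1 peak of 178.9 (chr12:53220838-53221112), 13685 bp away and 554 bp from RARG. ITGAL had 1 of 96.9 (chr16:30430163-30430286), 42440 bp away and 188 bp from DCTPP1, and ITGAM had 1 of 53.8 (chr16:31215268-31215711), 44477 bp away and 880 bp from PYDC1. ITGAE, ITGAD and ITGAX had none, at distances of 50277, 89323 and 139644 bp to the closest peak, so ITGAE missed the limit narrowly. ITGB2 alone of the 7 genes had a peak nearest to its own TSS.

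Focal adhesion protein genes had a median of 4 peaks and a mean of 4.47, beside a mean of 2.31 for other genes weighted by region length, and 11 of the 15 exceeded the mean of their length class. Their strongest peaks had a median of 130.2. Those of 10 of the 15 fell in the top 25% of the list, beside 23.8% of all protein-coding genes. This background was not matched for the number of peaks per gene. Set beside genes with the same number of peaks (7 or more pooled), the strongest peaks had percentiles from 8.55 (PXN) to 92.0 (BCAR1). TLN2 and TLN1 encode the talins, which bind the beta tail and activate the receptor. TLN2 had 12 peaks with values from 13.9 to 326.6, all nearest to one of its own TSSs. The strongest lay beyond the gene's end at chr15:62850739-62851074, 15276 bp from a TSS, and the closest was 701 bp from one. TLN1, the talin of most cells, had 4 peaks of 247.6, 63.2, 45.7 and 43.1, with the first in an intron at chr9:35727919-35728266, 3993 bp from a TSS, and the closest at 2302 bp. Both strongest talin peaks held the TEAD motif.

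VCL (vinculin) had 5 intronic peaks of 130.2 (chr10:74071267-74071502, 28299 bp from a TSS), 72.7, 65.7, 58.5 and 45.7, the closest at 1818 bp. The tensins bind actin and the beta tail. TNS3 had 6 peaks of 236.3 (chr7:47604902-47605195, 22506 bp upstream), 88.9, 86.1, 80.3, 48.8 and 13.1, the closest at 1052 bp. TNS1 had 2 of 69.6 and 49.0, the closest at 12761 bp, fewer than the mean of 3.45 in its length class, which is also that of TNS3. FERMT2 (kindlin-2), the partner of talin in activation, had 5 peaks of 101.0 (chr14:52834500-52834943, 26581 bp from a TSS), 87.9, 38.2, 34.2 and 17.6, and the weakest was the one closest to a TSS, at 286 bp.

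ILK, the PINCH proteins LIMS1 and LIMS2 and the parvins PARVA and PARVB form the complexes that link integrins to actin. LIMS2 had 6 peaks of 165.0 (chr2:127661368-127661636, 2916 bp from a TSS), 142.4, 96.2, 66.7, 66.2 and 17.9, with 3 within 2.5 kb and the closest at 42 bp. PARVA had 5 peaks of 164.7 (chr11:12411828-12412084, 13724 bp from a TSS), 153.2, 91.5, 87.8 and 23.4, and summits lay 20 and 38 bp from TSSs. LIMS1 had 4 peaks from 54.0 to 116.3, the closest at 394 bp, and ILK had 1 of 69.1, at 543 bp. PARVB differed from its paralogue PARVA, with 1 peak of 39.3 that lay 6569 bp from PARVG and 34488 bp from PARVB, although its search region was the longer, at 269 kb against 208 kb.

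Among the adaptors and kinases, PXN (paxillin) had 8 peaks, more than 98.7% of other genes in its length class, but its values were moderate, from 29.8 to 129.6. The strongest was at chr12:120276770-120277003, 11151 bp upstream, and the closest was 2229 bp from a TSS. BCAR1 had 3 peaks of 334.5, 240.7 and 52.7. The first, at chr16:75245133-75245482, was the strongest of all focal adhesion protein genes and lay 2625 bp from a TSS, and the next was 1752 bp from one. PTK2 had 3 peaks of 288.9 (chr8:140834793-140835128, 11308 bp from a TSS), 67.3 and 49.3, the closest at 2700 bp. ZYX (zyxin), which senses tension on actin fibres, had 2 peaks of 48.6 and 41.2, both at its promoter, 627 and 56 bp from a TSS. ILK and ZYX, with the shortest gene bodies of the 15, had 1 and 2 peaks, and all were promoter peaks.

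**Figure D3:**
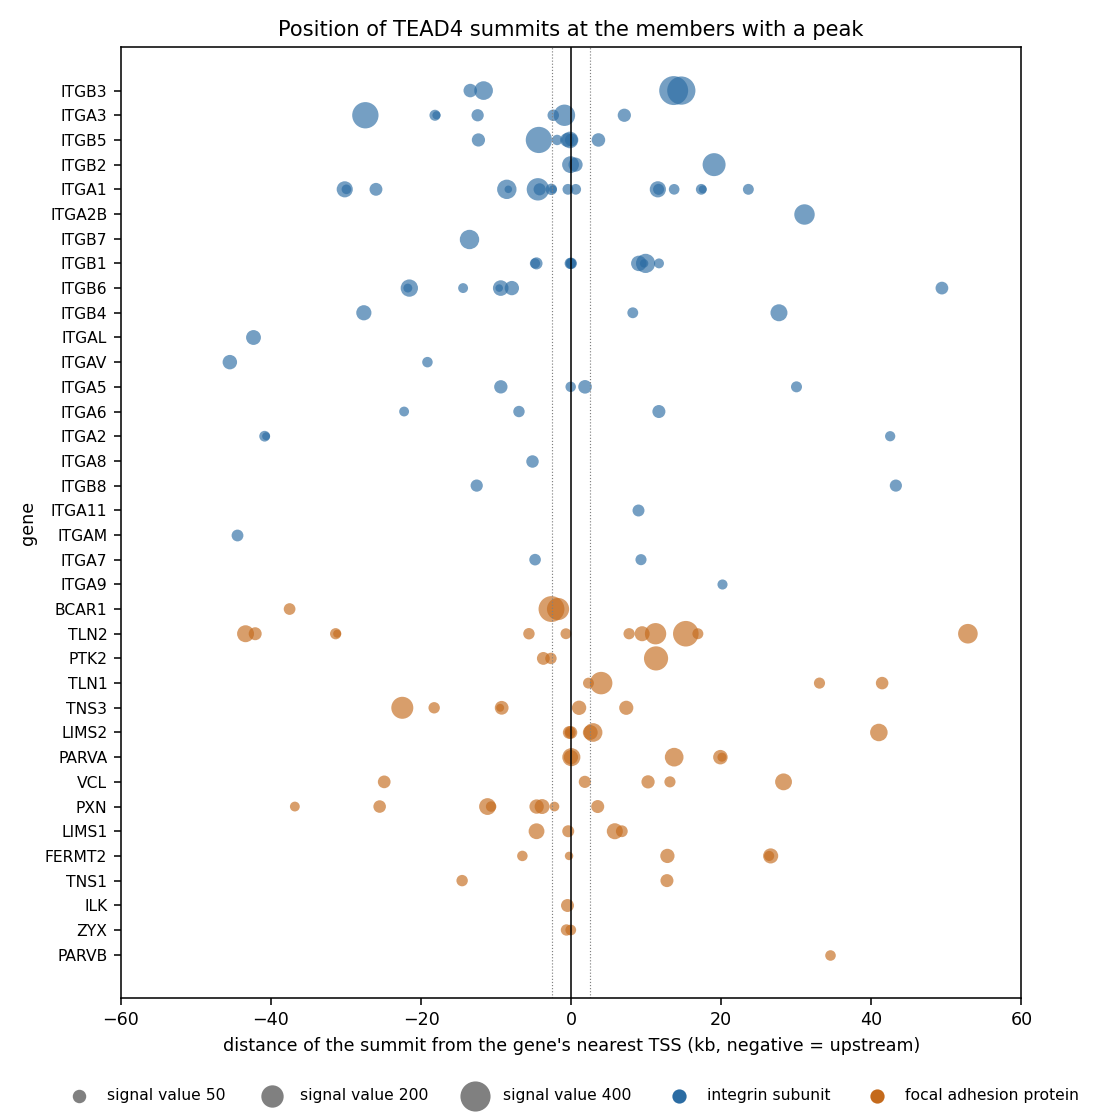
Distance of each summit from the nearest TSS of its gene (horizontal axis in kb, negative upstream; dotted lines at 2.5 kb), with 1 row per gene with a peak and the point size scaled to the signal value. The peak of ITGA2 in its UTR, 102044 bp downstream, is outside the range drawn, and focal adhesion protein genes have points between the dotted lines in 12 of 15 rows.

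The share of genes with a promoter peak was higher among focal adhesion protein genes than among integrin genes, while the share of peaks at promoters was not clearly different. Peaks within 2.5 kb of a TSS (promoter peaks) were present at 18 of the 41 genes (43.9%, 29.9 to 59.0), beside 16.7% of all protein-coding genes. Of the 15 focal adhesion protein genes, 12 had one (80.0%, 54.8 to 93.0), and PTK2, TNS1 and PARVB did not. Of the 26 integrin genes, 6 had one (23.1%, 11.03 to 42.1), namely ITGA1, ITGA3, ITGA5, ITGB1, ITGB2 and ITGB5, and other genes weighted by region length reached 22.5%. The intervals of the 2 groups do not overlap, and the share of integrin genes was near the background. Counted over links between a gene and a peak, 16 of 67 at focal adhesion protein genes (23.9%, 15.3 to 35.3) and 16 of 81 at integrin genes (19.8%, 12.5 to 29.7) were within 2.5 kb of a TSS of the gene, with overlapping intervals. With the TSSs of all coding genes, 29.9% of the focal adhesion protein peaks (20.2 to 41.7) and 34.2% of the integrin peaks (24.7 to 45.2) were that near to one, in the opposite order.

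The number and kind of annotated TSSs moved with the difference in genes. The focal adhesion protein genes had a median of 15 TSSs, the integrin genes 9 and the others 5, and 93.3% of the former, 53.8% of the integrin genes and 66.3% of the others had a CpG-rich promoter (a ratio of observed to expected CpG over 0.6 in the 500 bp on either side). With other genes weighted by number of TSSs, the backgrounds were 26.3% and 21.3% for the 2 groups. Among genes with CpG-rich promoters, 12 of 14 focal adhesion protein genes (85.7%) and 4 of 14 integrin genes (28.6%) had a promoter peak, beside 19.9% of the others. With 1 TSS per gene, 7 of 15 focal adhesion protein genes (46.7%), 3 of 26 integrin genes (11.5%) and 10.96% of the others had a promoter peak. The order thus held and the share of focal adhesion protein genes was lower. Intervals were not computed for these shares, so the separation of the 2 groups given above was not shown to hold with 1 TSS per gene. The part of TSS number and CpG content in the difference was otherwise not tested. The promoter peaks were not strong as a set, although single ones reached 240.7 at BCAR1 and 221.8 at ITGA3. At the genes that had one, the strongest peak within 2.5 kb had a median value of 62.6, below the 69.5 of other genes with such a peak.

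Most binding was intronic. Of the 148 links between a gene and a peak, 87 (58.8%) were in an intron, 38 upstream, 17 downstream, 5 in an exon of another transcript and 1 in a UTR. Summits more than 10 kb from every TSS of the gene made up 74 of the 148 (50%). These position shares were not computed for other genes, so they describe the 41 genes and do not set them apart. For 119 links (80.4%) the nearest coding TSS was that of the gene itself, beside 54.6% of the links of other genes. As a result, 29 of the 41 genes (70.7%) kept a peak when each peak was given to the nearest coding gene only, beside 32.8% of the others. The 7 genes that lost all their peaks by this rule were ITGA2B, ITGA7, ITGAL, ITGAM, ITGB4, ITGB7 and PARVB, of which 3 belong to leukocyte integrins. The nearest-TSS shares of other genes were not weighted for region length or number of TSSs, with a median of 11 TSSs at the 41 genes and 5 at others. The links of other genes also counted many peaks several times (28694 links from 15953 peaks), and those of the 41 genes few (148 from 146).

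**Figure D4:**
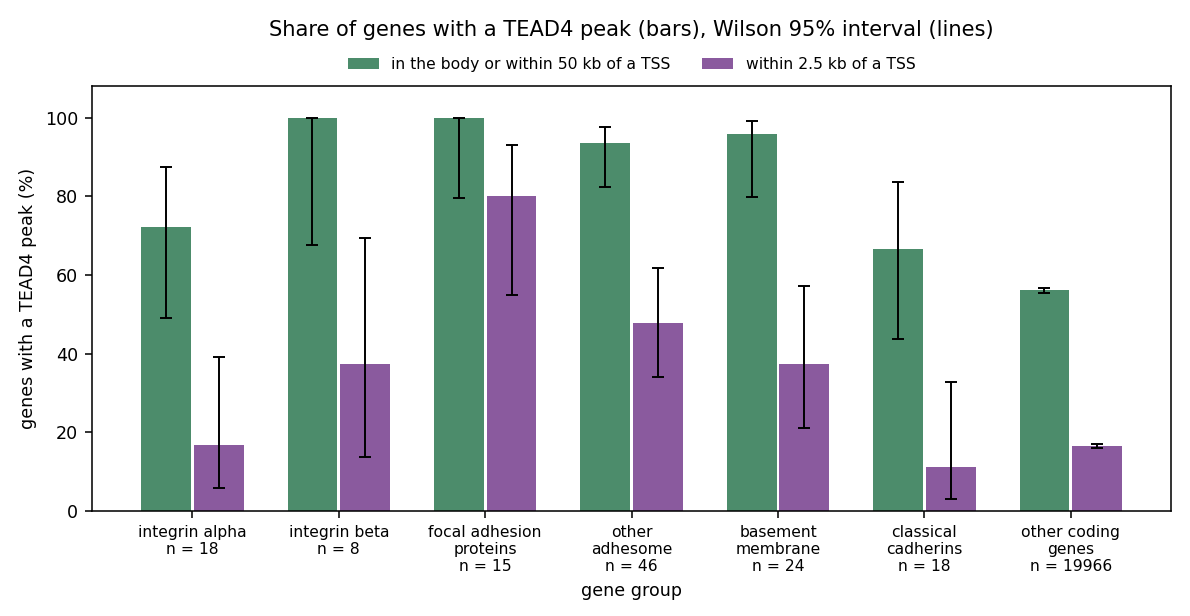
Share of genes (vertical axis, percent) with a TEAD4 peak in the gene body or within 50 kb of a TSS and with one within 2.5 kb of a TSS, for integrin alpha and beta genes, focal adhesion protein genes, 3 further gene lists and all other protein-coding genes. Lines are Wilson 95% intervals, and the focal adhesion protein genes have the highest share of promoter peaks, at 80.0%.

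Beside related gene lists, a high share of genes with a peak was not particular to the 41 genes. Of 46 other adhesome genes, which encode further adaptors, kinases and actin regulators of adhesions, 43 had a peak (93.5%, 82.5 to 97.8) and 22 a promoter peak (47.8%), with a median of 2.5 peaks. Their strongest peaks were at SORBS3 (653.3), AJUBA (556.9) and TRIP6 (470.9), all above the 422.9 of ITGB3. Of 24 basement membrane genes, which encode ligands of the laminin and collagen receptors, 23 had a peak (95.8%, 79.8 to 99.3) with a median of 3.5 peaks, led by COL4A2 (598.1), HSPG2 (320.6) and LAMB2 (303.9). Of 18 classical cadherin genes, whose products hold cells to each other rather than to matrix, 12 had a peak (66.7%, 43.7 to 83.7), against 67.6% of other genes weighted by region length, and 2 had a promoter peak (11.1%). Their strongest was at CDH1, with 824.1, followed by CDH3 (309.5) and CDH8 (286.7). Genes of cell-to-matrix adhesion were thus above the length-weighted background in all 3 lists (64.3% for the 41 genes, 63.0% for the other adhesome genes and 67.7% for the basement membrane genes), whereas the cadherin genes were at it. Within the 41 genes, the 26 integrin genes alone were not separated from it (80.8%, 62.1 to 91.5, beside 63.1%).

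The recognition sequences near the summits were those of the list as a whole. The TEAD motif ACATTCC, searched on either strand up to 100 bp from the summit, was in 37 of the 146 peaks (25.3%, 19.0 to 33.0), beside 23.0% of all other peaks. The AP-1 motif TGAGTCA, which reads TGACTCA on the opposite strand, was in 32 (21.9%, 16.0 to 29.3) beside 25.4%. The RUNX motif TGTGGTT was in 9 (6.16%, 3.28 to 11.3) beside 9.56%, and the E-box CAGATG was in 24 (16.4%, 11.3 to 23.3) beside 16.7%. All 4 background shares lie inside the intervals. Neither the TEAD nor the AP-1 motif was in 86 of the peaks (58.9%), beside 56.1%.

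TEAD and AP-1 motifs occurred together in 8 of the 79 integrin peaks (10.1%, 5.22 to 18.7), beside 4.48% of all other peaks, and in 1 of the 67 focal adhesion protein peaks (1.49%, 0.264 to 7.98). The 8 were at ITGA1 (3 peaks), ITGB5 (2 peaks), ITGA6, ITGAV and ITGB2, and the single focal adhesion protein peak was at PARVA. The intervals of the 2 groups overlap. Peaks with the TEAD motif were stronger in both sets, with a median signal value of 80.3 for the 37 peaks with it and 55.9 for the 109 without, beside 82.2 and 64.6 among all other peaks.

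**Figure D5:**
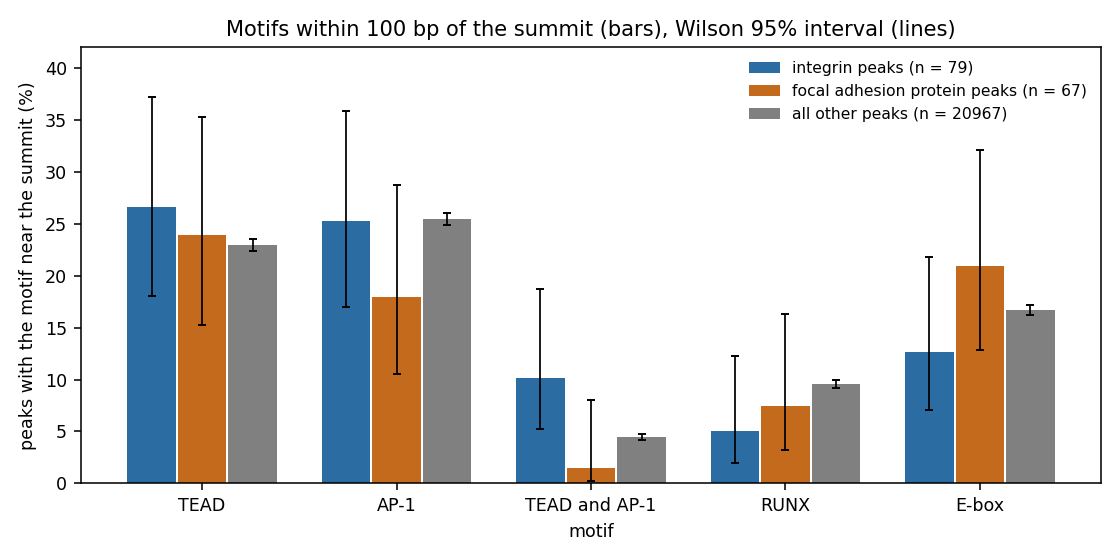
Share of peaks (vertical axis, percent) with each motif within 100 bp of the summit, for peaks at integrin genes, at focal adhesion protein genes and all other peaks, with Wilson 95% intervals as lines. The share with both TEAD and AP-1 is 10.1% at integrin genes, 1.49% at focal adhesion protein genes and 4.48% elsewhere.

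The motif sites of 6 further strong peaks are printed as 29 bases of hg38 in the direction of the motif, which is in capitals, to show the bases that flank it at talin, tensin, PINCH and integrin alpha genes.
TLN2 downstream, chr15:62850899-62850927, minus strand: ccaaataccagACATTCCtcacatggttt
TLN1 intron, chr9:35728091-35728119, plus strand: cctccctcaatACATTCCtgcgatgcatt
TNS3 upstream, chr7:47605123-47605151, plus strand: ttctcttgccaACATTCCtttctggggtg
ITGA3 intron, chr17:50062612-50062640, plus strand: ccgcaggcagtACATTCCtgactcccagt
ITGA1 intron, chr5:52922570-52922598, plus strand: ctgaaacctccACATTCCcctatgcccct
LIMS2 intron, chr2:127661483-127661511, plus strand: cagagacgtggACATTCCatgtcctcctt
The motif lay 8 bp from the summit at TLN2, 6 bp at TLN1 and LIMS2, 13 bp at ITGA3, 11 bp at ITGA1 and 73 bp at TNS3.

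Some peaks of these genes were less certain than others. The highest IDR score, 1000, was given to 105 of the 146 (71.9%), beside 76.1% of all other peaks. A q-value above 0.05 was found for 6 of the 146, beside 668 of the 20967 other peaks. These 6 were 3 peaks of ITGA1, of which 1 is shared with ITGA2, and 1 each of ITGB6, TLN2 and TNS3, and each overlapped a stronger peak of the same gene. Altogether 28 of the 146 shared bases with another peak, and 14 of them were weaker than the one they overlapped. The share of overlapping peaks in the rest of the list was not computed. With overlapping peaks merged, 132 regions remained at the 41 genes, and the median of 3 peaks per gene was as before. The share of genes with a peak was also unchanged, but merging leaves a region wherever there was a peak, so this share is not a check.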

How the data were processed

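ChIP-seq reads of LX-2 cells were mapped to hg38 with Chromap by the authors, who compared replicates with the ENCODE IDR (irreproducible discovery rate) pipeline, left out replicate 2 and called peaks from replicates 1 and 3. The peak caller is not given in the sources used here, and the name of the list gives an IDR threshold of 0.01. Each deposited peak carries a score, which is its scaled IDR (830 to 1000). A signal value and a −log10 q-value from the peak caller were also deposited by the authors, with the summit offset. These meanings were read from the list's layout. Depth is unknown.

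Genes and TSSs were taken from GENCODE release 44. Motifs were searched in the hg38 sequence. Shares have Wilson 95% intervals, and no test was run, since the list combines its replicates. Other genes were weighted over 10 classes of region length. All 41 genes are accounted for, with the number of peaks, the distance of the nearest and the position of the strongest for integrin genes with a peak and for focal adhesion protein genes with the most or the strongest peaks. The members, the comparison lists and the rule for named genes were chosen with earlier results of these data known. The code was tested on simulated data. Python 3.11.15, pandas 2.3.3, scipy 1.17.1 and pysam 0.24.0 were used.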

Additional observations from a re-analysis of the deposited data

How the results depend on the processing

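Over 41 alternatives, 31 values stayed inside the interval of the reported share or within 1.5 times the reported median. This count includes alternatives that only reweighted the other genes, which leave the value of the 41 genes or of their groups the same by construction. Merging overlapping peaks likewise left the share of genes with a peak little room to move. The share of the 41 genes with a peak (87.8%) was 43.9% with peaks within 2.5 kb of a TSS only (others 16.6%), 65.9% in gene bodies only (24.9%), 70.7% with each peak given to the nearest gene (32.8%) and 65.9% with signal values above the median only (38.8%), and it exceeded the other genes under all 9 alternatives run. The median number of peaks was 0 within 2.5 kb, equal to the others, and 1 above the median signal value. The median strongest signal value was 62.6 within 2.5 kb, below the 69.5 of the others. The TEAD motif share of the peaks was 36.4% above the median signal value (others 27.8%) and 45.2% with the core GGAATG (46.8%), and in gene bodies only it was 22.6% beside 23.0%, so this order is not stable. The promoter share of focal adhesion protein genes was 46.7% with 1 TSS per gene. The 6 alternatives for promoter shares were chosen after seeing the data. No paired analysis was possible because replicates were combined into 1 list, and none could be left out. The causes of these moves were not tested. Assignment by distance does not show which gene a site regulates.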
